A study of Mus musculus with 6 samples.

Results

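The genes described here belong to the Hippo pathway: the transcription factors Tead1, Tead2 and Tead3, their co-activators Yap1 and Wwtr1, the kinases Lats1 and Lats2, and the output genes Ctgf, Cyr61 and Amotl2. They were chosen by name, and all 10 stand among the 12316 gene rows of the authors' deposited table. The cells were CD-1 mouse neural stem cells from embryos at E14.5, bought from a supplier, kept as a monolayer with the growth factors EGF and bFGF, transduced with a lentiviral short hairpin RNA (shRNA) and expanded in 0.5 µg/mL puromycin. The hairpin was scrambled (SHC002), or targeted Sox4 (TRCN0000012078 or TRCN0000012080), a SoxC transcription factor, with 2 libraries for each of the 3 hairpins, named by passage. All groups therefore share the virus, the selection and the medium, and the submitters describe the passages as biological duplicates. Their design text speaks of 1 shRNA against Sox4, where the labels of the samples give 2.

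In the Hippo pathway, the kinases Mst1 and Mst2 (genes Stk4 and Stk3) activate Lats1 and Lats2, which phosphorylate the co-activators YAP (Yap1) and TAZ (Wwtr1) and keep them out of the nucleus. Unphosphorylated YAP and TAZ enter the nucleus, bind TEAD factors and switch on genes such as Ctgf and Cyr61, and also Lats2 and Amotl2, which feed back on the pathway. Much of this control acts on proteins, which RNA levels do not report. YAP and TEAD factors are known for sustaining the growth of neural progenitors, and Tead2 has been reported as a target of SoxC factors.

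The deposited comparison gives each gene 1 level for a first and 1 for a second condition, without naming either, and says nothing of how libraries were pooled. No condition was assigned, so higher and lower below always mean the second condition relative to the first. The header names no unit, and the levels are read here as FPKM (fragments per transcript length and sequencing depth), which Cuffdiff writes in such columns. There is no value per library, so no standard deviation, n or overlap between libraries can be given, and the sequencing depth is unknown. Genes that the authors flagged are termed called, and only these are said to have risen or fallen. Sox4 itself was listed by the authors' deposited table at 126.8 and then 83.9 (q = 0.0543), and was not called. For the marker counts that follow, the shares over all rows were 3.17% called higher and 1.83% called lower. Of 9 listed markers of neural stem cells 8 were found among the rows, 1 called higher (Nes) and 1 lower (Fabp7). All 6 astrocyte markers were found, 1 called higher and 3 lower, and their summed level went from 220 to 131. Among 7 oligodendrocyte markers 5 were found with 1 fall, and among 6 neuron markers 3 with no call. The ependymal marker Foxj1, of 2 found among 4, rose. For endothelial cells and microglia 0 of 5 markers each were found, and for fibroblasts 1 of 7, Twist1, which fell. Why a gene is missing from the rows is not stated, so an absent marker is not taken as unexpressed. Fewer cells of a type and less RNA per cell cannot be told apart here, and the part of these shifts in the results below was not tested.

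Short stretches of the promoters are shown first, because the output genes are read through a sequence that TEAD factors bind. RefSeq promoter windows (GRCm38.p6, 250 bases before to 50 after a start) were at hand for 8 of the 10 genes, and not for Tead1 and Ctgf. The letters GGAATG, or CATTCC on the other strand, stand in a window of 6 of these 8 genes, and in a window of 14.0% of the 9455 genes of the table that have one. Counted by window, 8 of 12 hold them, against 14.7% of all 32851 windows. Capitals mark these letters in the stretches below, each written 5′ to 3′ on the strand of its gene.

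Yap1, chr9:8004705-8004764, minus strand: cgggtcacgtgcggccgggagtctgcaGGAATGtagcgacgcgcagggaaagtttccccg
Wwtr1, chr3:57576014-57576073, minus strand: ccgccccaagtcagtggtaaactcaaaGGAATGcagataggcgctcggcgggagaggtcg
Cyr61, chr3:145650056-145650115, minus strand: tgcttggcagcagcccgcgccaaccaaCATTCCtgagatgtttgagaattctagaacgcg
Tead3, chr17:28350955-28351014, minus strand: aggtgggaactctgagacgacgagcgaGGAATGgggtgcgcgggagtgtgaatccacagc
Tead3, chr17:28350706-28350735, minus strand: tccggccgggctCATTCCgtaCATTCCggc
Amotl2, chr9:102717727-102717756, plus strand: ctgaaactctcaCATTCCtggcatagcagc
Lats2, chr14:57746102-57746131, minus strand: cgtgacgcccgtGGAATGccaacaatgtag

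In Yap1, Wwtr1 and Cyr61 the letters begin 141, 136 and 103 bases before the RefSeq start, counted to the nearer start in Wwtr1, whose 2 windows share the site. GENCODE M21 places these 3 sites, and the first of Tead3, upstream of the gene, and those of Amotl2 and Lats2 and the pair in Tead3 over an exon. Tead3 holds 4 such matches, all within the first and second of its 3 windows. The windows of Tead2 and Lats1 hold none. For SOX factors the letters ACAAAG, or CTTTGT on the other strand, were searched likewise. They stand in the window of 1 of the 8 genes, Tead2, and in 16.3% of genes of the table with a window. The match in Tead2 begins 28 bases before the RefSeq start and lies over an exon in GENCODE M21, and capitals mark it here:

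Tead2, chr7:45215752-45215781, plus strand: cacttttcccaaACAAAGctcccggcaact

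These are matches of letters, and no binding was measured in these samples.

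Of the 10 genes 1 rose, Ctgf, and 0 fell, per the authors' deposited table. Among all rows of the authors' deposited table, 3.17% were called higher and 1.83% lower. The other 9 genes were not called, yet 8 of them had a positive log2 fold, which makes 9 of 10 with Ctgf, against 50.5% of all rows. The median log2 fold was 0.36 over the 10 genes and 0.0033 over all rows. At an unadjusted p under 0.05, 5 of the 10 were higher (Tead1, Tead2, Lats1, Lats2 and Ctgf) and 0 lower, against 9.96% and 7.53% of all rows per the authors' deposited table. The members were listed with earlier results of these data known, so these counts describe them and are not a test of the list.

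**Figure D1:**
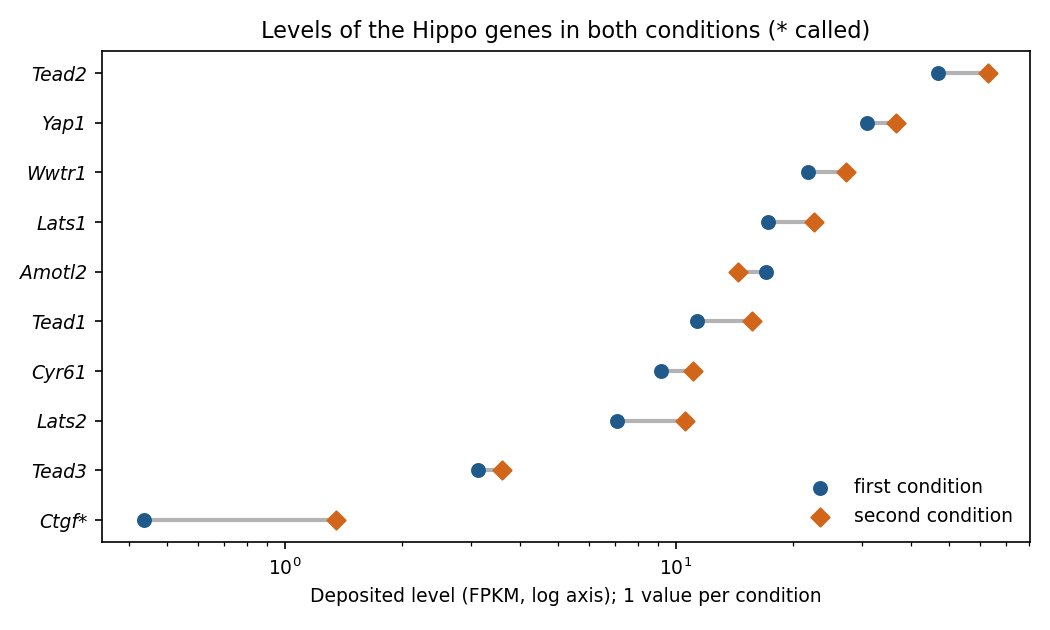
Deposited level (FPKM, log axis) of each gene in the first (circles) and second (diamonds) condition, 1 value each, with no error available; the asterisk marks Ctgf, the gene called by the authors. Circle and diamond lie close for every gene except Ctgf, and Amotl2 is the gene whose diamond lies to the left.

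The TEAD factors bind DNA and need a co-activator to switch genes on. Tead2 (chromosome 7, 45215753 to 45233644, plus strand) had the highest level of the 10 genes in both conditions, namely 46.9 and then 62.8 per the authors' deposited table (log2 fold 0.42, p = 0.0203, q = 0.192). Tead2 was thus 1.34-fold higher in the second condition, but the difference did not pass the authors' threshold. The level of Sox4, also not called, was the lower one there. This is not particular to Tead2, since 9 of the 10 genes had a positive fold, and a link to Sox4 was not tested. Its exons overlap those of Cd37 on the other strand, and the counting is not stated to use strand.

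Tead1 (chromosome 7, 112679318 to 112906807, plus strand) went from 11.3 to 15.7 per the authors' deposited table (log2 fold 0.47, p = 0.0101, q = 0.128). Tead3 (chromosome 17, 28331671 to 28350817, minus strand) was the rarest of the 3, at 3.13 and 3.60 per the authors' deposited table (log2 fold 0.20, p = 0.463). None of the 3 was called: 0 by the authors' Cuffdiff q, and 2 with an unadjusted p under 0.05. Their summed level went from 61.4 to 82.1. Tead2 made up 76.5% of that sum in both conditions, Tead1 18.5% and 19.1%, and Tead3 5.10% and 4.39%. Each share moved by less than 1 percentage point between conditions. Tead4, the remaining family member, is not among the rows analysed here.

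Yap1 and Wwtr1 encode the paralogous co-activators that bind TEAD factors. Yap1 (chromosome 9, 7931999 to 8004596, minus strand) stood at 30.8 and 36.6 per the authors' deposited table (log2 fold 0.25, q = 0.524). Its exons overlap those of Gm20416 on the other strand. Wwtr1 (chromosome 3, 57455649 to 57575910, minus strand) stood at 21.9 and 27.2 per the authors' deposited table (log2 fold 0.32, q = 0.384). Both levels were higher in the second condition and neither gene was called. Yap1 held 58.5% of their summed level in the first condition and 57.4% in the second.

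The Lats kinases inhibit YAP and TAZ, and Lats2 is in turn a YAP target. Lats1 (chromosome 10, 7681214 to 7716460, plus strand) went from 17.2 to 22.7 per the authors' deposited table (log2 fold 0.40, p = 0.0271, q = 0.224). Lats2 (chromosome 14, 57689662 to 57758388, minus strand) went from 7.10 to 10.6 per the authors' deposited table (log2 fold 0.57, p = 0.0177, q = 0.177). This was the largest fold among the 9 uncalled genes. Exons of Lats2 overlap those of Gm49361 on the same strand, so reads of these genes may have been split between them. The kinases' summed level was 24.3 and 33.2, and Lats1 held 70.8% of it in the first condition and 68.2% in the second. The inhibitors and the co-activators thus both had positive folds, and the difference between them was not tested.

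Ctgf and Cyr61 encode secreted matricellular proteins of the CCN family and are the most used readouts of YAP and TAZ. Ctgf (named Ccn2 in the annotation, chromosome 10, 24595442 to 24598683, plus strand) rose from 0.437 to 1.36 per the authors' deposited table (3.11-fold, log2 fold 1.64, p = 0.00085, q = 0.0259). It was the rarest of the 10 genes in both conditions, lying above 0.7% of all rows in the first and 8.5% in the second. With a pseudocount of 1 its log2 fold is 0.71, and the call was lost (0 called) with q recomputed over rows at 5 or more, which leaves Ctgf out, or at a q of at most 0.01. Its exons overlap those of Gm15270 on the other strand.

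Cyr61 (named Ccn1 in the annotation, chromosome 3, 145646976 to 145649981, minus strand), at 9.19 and 11.1 per the authors' deposited table, was far more abundant than Ctgf and was not called (log2 fold 0.27, q = 0.628). Amotl2, which encodes an angiomotin-like scaffold that holds YAP at the membrane and is itself a YAP target, was the exception in direction. Amotl2 (chromosome 9, 102716672 to 102733418, plus strand) went from 17.0 to 14.4 per the authors' deposited table (log2 fold -0.23, q = 0.588). The 3 output genes therefore did not share a direction: 1 rose, and the others were uncalled with folds of opposite sign.

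The order of the 10 genes by level was nearly the same in both conditions. From the highest it ran Tead2, Yap1, Wwtr1 and Lats1, then Amotl2 and Tead1 in the first and Tead1 and Amotl2 in the second condition, then Cyr61, Lats2, Tead3 and Ctgf. With no spread over libraries it cannot be said which neighbours in this order differ. Relative to the whole table Tead2 lay above 83.3% of rows in the first condition and 87.9% in the second, and Yap1 above 74.7% and 78.9%. Tead3 lay above 19.2% and 20.8%.

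Since no error is given, the size of change that the authors' test called at each level is shown in its place. Among the 500 rows nearest to Tead2 in mean level, 29 were called, and the smallest absolute log2 fold among them was 0.56. The corresponding smallest called fold was 0.58 around Tead1, 0.56 around Yap1 and Wwtr1, 0.59 around Lats1 and 0.71 around Tead3. For Lats2 it was 0.60, just above that gene's own 0.57. The folds of Tead1, Tead2 and Lats1, between 0.40 and 0.47, were thus below anything called at like levels. Around Ctgf, 16 of 500 rows had a fold at least as large, and 5 of these were called. The 3 genes with the pair of levels nearest to Ctgf, by distance on the log2 scale over the 2 conditions, were Gxylt2, 1700120K04Rik and Htr3a. They had log2 folds of 1.64, 1.52 and 1.40, with q-values of 0.0773, 0.414 and 0.0750 per the authors' deposited table, and were not called. At levels this low a similar fold was called for some genes and not for others.

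**Figure D2:**
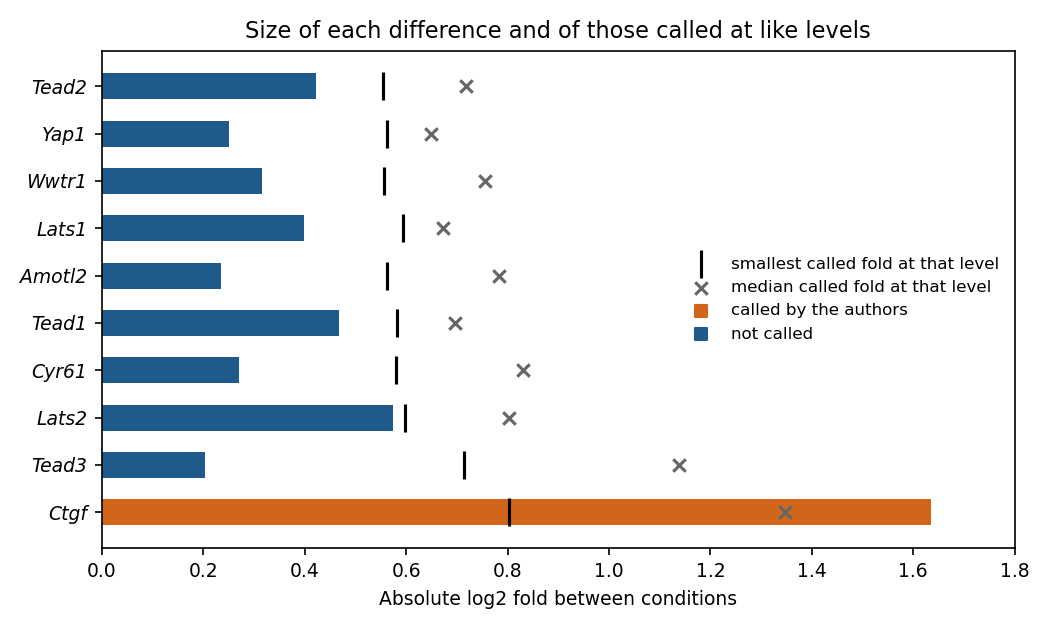
Absolute log2 fold between conditions for each gene (bars), with the smallest (vertical tick) and median (cross) absolute log2 fold called among the 500 rows nearest in mean level. Only the bar of Ctgf reaches past its tick, and that of Lats2, at 0.57, ends just short of its tick at 0.60.

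Folds moved with transcript length over the whole table, and this touches several of the genes. The median log2 fold was -0.22 in the shortest 10% of rows by longest GENCODE transcript and 0.23 in the longest 10%, where 13.2% of rows were called higher. In this longest group 31.3% of rows were higher at an unadjusted p under 0.05. Tead1, with a transcript of 9964 nt, and Lats1, with 7209 nt, are in it. With the median of their length group (10 groups of equal size) taken off, the log2 fold of Tead1 went from 0.47 to 0.23 and that of Lats1 from 0.40 to 0.16. The folds of Tead2, Lats2 and Ctgf, with transcripts of 3396, 5191 and 2490 nt, were 0.42, 0.50 and 1.69 after the same step. The median of the 10 genes went from 0.36 to 0.24, and 9 of 10 still lay above the median of their group. What the trend comes from was not tested.

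**Figure D3:**
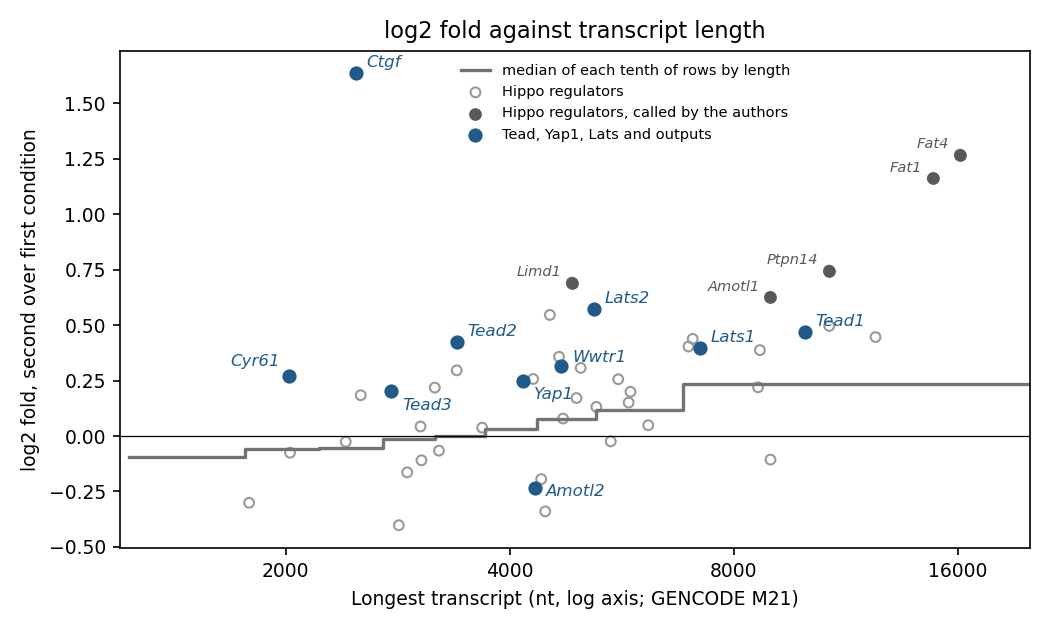
log2 fold against the longest transcript (nt, log axis) for the 10 genes (blue), the Hippo regulators (open grey, and filled where called) and the median of each of 10 length groups of rows (line, the shortest group left out). All of the blue points except Amotl2 lie above the line, and Fat1, Fat4, Ptpn14 and Amotl1 stand at its long end.

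Beside these genes, 40 further regulators of the pathway were listed, of which 38 are rows of the table. Of these 5 rose (13.2%), 0 fell and 33 were not called per the authors' deposited table, against 3.17% and 1.83% of all rows called higher and lower. A positive fold was found for 27 (71.1%), against 50.5% of all rows. Their median log2 fold was 0.19. None of the 5 belongs to the core made up of Stk3, Stk4, Sav1, Mob1a, Mob1b and Nf2, for which 0 Cuffdiff calls stand beside 0 genes with an unadjusted p under 0.05. Over the whole list of regulators 10 were higher and 1 lower at such a p, against 9.96% and 7.53% of all rows.

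The largest rises were of atypical cadherins, giant adhesion proteins that act upstream of the Hippo kinases. Fat1 rose from 19.8 to 44.2 per the authors' deposited table (2.24-fold, q = 0.00304). Fat4 rose from 1.92 to 4.62 per the authors' deposited table, 2.41-fold, with the same q. This q goes with the smallest Cuffdiff p of all rows, 5e-05, which 230 rows share, so it does not rank them. Dchs1, a cadherin ligand of Fat4, stood at 11.2 and 15.8 per the authors' deposited table with a q of 0.0963, and was not called. Exons of Fat1, Fat4 and Ptpn14 overlap antisense genes on the other strand.

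The other rises were of proteins that bind YAP or LATS. Amotl1, an angiomotin relative, rose from 20.0 to 30.9 per the authors' deposited table with a q of 0.0270, in contrast to the negative fold of Amotl2. Ptpn14, a phosphatase that holds YAP in the cytoplasm, rose from 6.89 to 11.6 (1.68-fold) per the authors' deposited table. Limd1, a LIM protein that binds Lats kinases, rose from 40.5 to 65.5 (1.62-fold) per the authors' deposited table. Both had a Cuffdiff q of 0.00528. Wwc1, the scaffold also named Kibra, missed the threshold at 51.0 and 74.4 per the authors' deposited table, with the lowest q of all uncalled rows, 0.0504.

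Among these 5 rises 4, all but Limd1, are among the longest 10% of transcripts, to which 11 of the 38 regulators belong. Among all rows of that length 13.2% were called higher. Leaving out these transcripts removes the 4 by construction, and 1 rise was left. With the median of their length group taken off, the log2 fold of Fat1 went from 1.16 to 0.93, that of Fat4 from 1.27 to 1.04, that of Ptpn14 from 0.75 to 0.51 and that of Amotl1 from 0.63 to 0.39. In the core, Stk3 stood at 7.81 and 6.97 and its paralogue Stk4 at 17.0 and 18.7 per the authors' deposited table. Their partners Sav1, Mob1a and Mob1b had log2 folds of 0.18, -0.19 and -0.11 per the authors' deposited table. Nf2, the tumour suppressor that recruits Lats kinases to the membrane, stood at 38.6 and 40.7 per the authors' deposited table. All 6 of these genes had a q above 0.7. The regulator with the highest level, Map4k4, a kinase that acts beside Mst1 and Mst2, stood at 229 and 254 per the authors' deposited table with a q of 0.786.

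A list of 32 genes known as YAP and TAZ targets in many cell types had 28 rows, 4 of which are Ctgf, Cyr61, Lats2 and Amotl2. Of the 28, 7 rose (25.0%), 0 fell and 21 were not called per the authors' deposited table, against 3.17% and 1.83% of all rows called higher and lower. The 7 rises became 4 at a q of at most 0.01 and 4 with q recomputed over rows at 5 or more. The list was uneven: 16 had a positive (57.1%, against 50.5% of all rows) and 12 a negative fold, and the median log2 fold was 0.18. At an unadjusted p under 0.05 there were 10 higher and 1 lower, against 9.96% and 7.53% of all rows. Of the 22 targets in no other list 5 rose, 11 had a positive fold, and their median log2 fold was 0.07, which turned to -0.07 with the medians of their length groups taken off.

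Beside Ctgf and Ptpn14, the rises were of the 5 genes that follow. Thbs1, the matricellular thrombospondin 1, rose from 2.72 to 7.29 per the authors' deposited table (2.68-fold, q = 0.00304). Tgfb1i1, the focal adhesion protein Hic-5, rose from 1.03 to 2.78 per the authors' deposited table (2.70-fold, q = 0.00528). Crim1, a transmembrane protein that binds bone morphogenetic proteins, rose from 7.05 to 14.7 per the authors' deposited table (2.08-fold, q = 0.00708).

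Igfbp3, an insulin-like growth factor binding protein, was the most abundant of these rises, going from 400 to 659 per the authors' deposited table with a q of 0.0135. Dock5, an exchange factor for Rac, rose from 1.46 to 2.48 per the authors' deposited table with a q of 0.0317. Exons of Thbs1 and of Crim1 overlap genes on the other strand. Targets that went the other way include Fstl1, a secreted glycoprotein, at 16.1 and 12.1 per the authors' deposited table with a p of 0.038, which was not called. Gadd45a, also not called, had the most negative log2 fold of the list, -0.65, at 3.47 and 2.22 per the authors' deposited table (q = 0.451). Ccnd1, the cell cycle gene cyclin D1 and the uncalled target with the highest level, stood at 178 and 246 per the authors' deposited table with a q of 0.144. Axl, a receptor tyrosine kinase, and Myc, a growth-promoting transcription factor, had log2 folds of -0.12 and -0.29 per the authors' deposited table and were not called. Ankrd1, Myof, Foxf2 and Col4a3 are not among the rows analysed here.

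**Figure D4:**
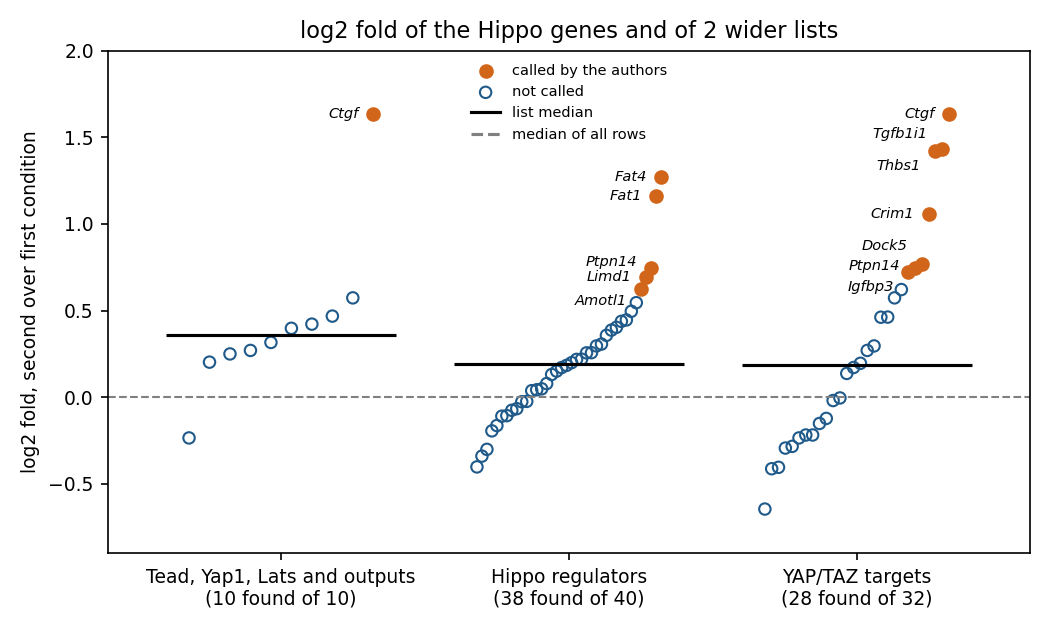
log2 fold (second over first condition) of the 10 genes, the Hippo regulators and the YAP/TAZ targets, each sorted by value, with filled points for genes called by the authors, bars for list medians and a dashed line for the median of all rows. All called points lie above the line, with 1, 5 and 7 of them in the lists from left to right, and genes in several lists are drawn in each.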

How the data were processed

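Per the labels' protocols, libraries of poly(A) RNA were prepared with a SOLiD kit. Reads were processed with TopHat2 2.0.9, Cufflinks 2.2.1 and Cuffdiff for mm10, per the submitters' processing notes. Neither the annotation nor the use of strand is given in the sources used here. The deposited table, per the file headers, holds 2 levels per gene, taken as FPKM, besides the log2 fold, the test statistic (a score), the flag, and the p-value with its q-value. The highest flagged q is 0.0494. Cuffdiff's values were used as deposited by the authors, and no model was refitted.

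Computed here (Python 3.11.15, numpy 2.4.6, pandas 2.3.3, matplotlib 3.10.9) were counts, medians, family shares, recomputed Benjamini-Hochberg q-values and promoter matches. The Benjamini-Hochberg step and the removal of a length trend were tested on simulated data, and the other steps were not. Positions and transcript lengths came from GENCODE M21 on GRCm38, not stated to be the authors' annotation. Of the symbols 11693 matched as written and 462 through older names. Members and lists were chosen with earlier results of these data known. The rule for named genes took all members, every called gene of the 2 lists, each list's most abundant uncalled gene, Sox4, and the 3 genes nearest to each called member. Dchs1, Wwc1, the kinase core, Nf2, Fstl1, Gadd45a, Axl and Myc were added after their values were seen, for their role, their fold or their place at the threshold. So were the called markers Nes, Fabp7, Foxj1 and Twist1, and the relatives Stk38, Stk38l, Fat3, Ptpn21 and Rassf5.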

Additional observations from a re-analysis of the deposited data

How the results depend on the processing

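Of the genes led with, the rise of Ctgf was lost (0 called) at a q of at most 0.01 and when q was recomputed over rows at 5 or more, a filter that leaves Ctgf out because of its low level. The 5 rises among Hippo regulators became 2 where the log2 fold also had to reach 1 in size, and 1 without the longest 10% of transcripts, which hold 4 of the 5. The 7 rises among YAP/TAZ targets became 4 at a q of at most 0.01, 4 with q recomputed over rows at 5 or more and 4 where the fold had to reach that size. A stricter threshold can only lower a count. With q recomputed over every row, or over rows at 1 or more, Wwc1 joined the regulators, making 6. The deposited q was therefore not adjusted over exactly the rows at hand. Over rows at 5 or more the regulators still numbered 5, with Wwc1 added and Fat4 left out by the filter for its low level. No fall appeared in the 3 lists under these settings. Of 40 alternative folds of the 10 genes 37 stayed within 1.5 times, 3 moved further (Tead1, Lats1 and Ctgf, given above) and 0 changed sign. A pseudocount or a small centring cannot turn a sign, so those settings test little. Taking off the length trend lowered the list medians to 0.24, 0.09 and 0.06, and that of the targets in no other list from 0.07 to -0.07. Leaving out the longest transcripts was chosen after seeing the data, as was leaving out shared genes, under which 5 targets rose. No paired analysis was possible because levels are given per condition and not per passage. Runs without single replicates, or with each Sox4 hairpin apart, could not be made either. Depth is unknown and sets no stated limit.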

Other observations

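Relatives of the genes above were looked up by family after the data had been seen. Of 16 named, 8 are rows of the table and 0 were called by the authors' Cuffdiff q, while 2 had an unadjusted p under 0.05. Over all rows 3.17% were called higher and 1.83% lower, and at such a p 9.96% were higher and 7.53% lower. The kinases Stk38 and Stk38l, the closest relatives of Lats1 and Lats2, had log2 folds of -0.03 and 0.04 per the authors' deposited table. Fat3, a relative of Fat1 and Fat4, had a log2 fold of 0.44 per the authors' deposited table (p = 0.0324, q = 0.246). Ptpn21, the relative of Ptpn14, stood at 3.10 and 4.17 (q = 0.331) per the authors' deposited table. Rassf5 had the largest fold, from 0.433 to 0.993, (p = 0.0489, q = 0.305) per the authors' deposited table.

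The TEAD letters GGAATG or CATTCC stood in a promoter window of 63 of 298 genes called higher (21.1%), 20 of 159 called lower (12.6%) and 13.8% of 8998 uncalled genes. For the SOX letters ACAAAG or CTTTGT the shares were 13.4%, 25.2% and 16.2%. A gene was counted if any of its windows held the letters, and the number of windows per gene was not compared between these groups. These shares were not tested.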
